A study of Mus musculus with 18 samples.

Results

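A set of 9 genes that mark excitatory (glutamatergic) neurons of the cortex and hippocampus was followed in the brains of mice given glyphosate. They are *Slc17a7*, *Tbr1*, *Neurod6*, *Neurod2*, *Fezf2*, *Cux2*, *Rorb*, *Prox1* and *Wfs1*, and they were taken by symbol from the deposited table, in which rows are Entrez gene numbers. All 9 of 9 were found among its 27179 rows, and all 9 were among the 15863 genes that passed the filter on low counts.

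The RNA came from 18 C57BL/6J mice, a standard inbred strain, which were 4 months old when dosing began, received the herbicide glyphosate or its vehicle by oral gavage on each of 14 days, and were perfused after the last dose. Vehicle was given to 2 males and 3 females. The daily dose of 125 mg/kg was given to 3 males and 2 females, 250 mg/kg to 3 males and a single female, and 500 mg/kg to 2 males and 2 females, and all 18 are labelled wild type. Each library is 1 mouse and is called here by the G number of its label. Total counts per library ran from 6403484 to 9454609 for vehicle, from 6359193 to 11732885 at 125 mg/kg, from 3948096 to 8051695 at 250 mg/kg and from 5625140 to 7924387 at 500 mg/kg, so 1 read was worth less than 1 CPM, the library-scaled count used throughout, in every library. The extraction protocol names half-brain samples, while the study's introduction speaks of hippocampal tissue. All 15 genes of a cerebellar neuron list were detected in each dose group, with a summed level of 348.5 to 4861 CPM over the 18 libraries, so the values are read as half-brain values.

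Excitatory neurons of the forebrain load glutamate into synaptic vesicles and release it onto their targets. Their identity is set in development by transcription factors that many of these neurons keep making in the adult. *Slc17a7* encodes VGLUT1, the vesicular glutamate transporter of cortex, hippocampus and cerebellar granule cells. *Tbr1* is a T-box factor of early-born and layer 6 cortical neurons, and *Neurod6* and *Neurod2* are related basic helix-loop-helix factors of excitatory cortical and hippocampal neurons, *Neurod2* being made by cerebellar granule cells too. *Fezf2* specifies subcerebral projection neurons of layer 5, *Cux2* marks the upper layers and *Rorb* marks layer 4 neurons and is also made in sensory nuclei of the thalamus. *Prox1* marks granule cells of the dentate gyrus and *Wfs1*, which encodes the endoplasmic reticulum protein wolframin, marks pyramidal cells of hippocampal field CA1 and is made in other forebrain neurons as well. In bulk tissue, fewer cells of a type and less RNA per cell cannot be told apart.

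Per length of exons, *Slc17a7* was the most abundant, at 116.3 ± 51.7 CPM per kb (SD, n = 18). *Neurod6* (39.0 CPM per kb), *Neurod2* (31.9) and *Wfs1* (30.3) followed, and neighbours among these 3 were closer than the larger of their SDs. *Tbr1* averaged 17.4 CPM per kb and *Rorb* 11.8, a gap smaller than the SD of *Tbr1* of 11.8. *Fezf2* (7.24), *Cux2* (6.80) and *Prox1* (4.92) were the lowest, again with neighbours closer than the larger SD.

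The starts of 4 of these genes are shown because their levels separate below: *Tbr1* and *Fezf2* were nearly absent from the same 2 libraries, and *Neurod6* and *Neurod2*, which encode factors of one family, parted in 1 of them. Each window runs from 250 bases before to 50 bases after the annotated start (RefSeq, build GRCm38.p6), reads 5′ to 3′ along the gene's strand, and has in capitals every match to CANNTG, the E-box that basic helix-loop-helix factors bind. The windows lie at chr2:61804203-61804502 (*Tbr1*, plus strand), chr14:12345816-12346115 (*Fezf2*, minus), chr6:55681214-55681513 (*Neurod6*, minus) and chr11:98329596-98329895 (*Neurod2*, minus). The other 5 genes lie at chr7:45163921-45176139 (*Slc17a7*), chr5:121857962-122050415 (*Cux2*), chr19:18930609-19111196 (*Rorb*), chr1:190118035-190170827 (*Prox1*) and chr5:36966104-36988982 (*Wfs1*) on GRCm38.
Tbr1: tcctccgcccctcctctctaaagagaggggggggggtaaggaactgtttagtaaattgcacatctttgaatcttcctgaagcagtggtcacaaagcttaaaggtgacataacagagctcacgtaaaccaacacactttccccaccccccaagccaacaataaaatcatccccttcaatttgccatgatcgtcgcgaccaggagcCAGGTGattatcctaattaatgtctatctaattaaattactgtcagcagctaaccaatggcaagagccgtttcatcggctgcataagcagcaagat
Fezf2: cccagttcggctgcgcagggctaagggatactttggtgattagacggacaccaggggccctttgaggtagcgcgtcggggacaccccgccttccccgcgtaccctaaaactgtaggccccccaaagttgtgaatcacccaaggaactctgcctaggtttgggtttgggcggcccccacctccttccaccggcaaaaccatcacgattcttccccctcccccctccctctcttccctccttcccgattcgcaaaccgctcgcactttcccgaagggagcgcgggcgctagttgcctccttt
Neurod6: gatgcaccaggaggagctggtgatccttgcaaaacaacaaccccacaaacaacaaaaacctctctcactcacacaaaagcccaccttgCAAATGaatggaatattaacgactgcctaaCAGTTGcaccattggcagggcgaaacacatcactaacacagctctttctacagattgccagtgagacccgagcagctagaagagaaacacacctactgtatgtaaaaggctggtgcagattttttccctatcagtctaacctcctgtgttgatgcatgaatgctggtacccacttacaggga
Neurod2: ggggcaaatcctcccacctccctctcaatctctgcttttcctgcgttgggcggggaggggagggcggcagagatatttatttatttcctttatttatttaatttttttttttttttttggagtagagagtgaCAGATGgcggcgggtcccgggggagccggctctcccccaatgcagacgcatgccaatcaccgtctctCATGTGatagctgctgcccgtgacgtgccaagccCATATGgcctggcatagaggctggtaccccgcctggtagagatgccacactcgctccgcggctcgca
The *Tbr1* window held 1 E-box, *Fezf2* none, *Neurod6* 2 and *Neurod2* 3. Of all 32851 windows of this length, 72.3% held at least 1 match on either strand, and 8 of the 9 genes did in at least 1 of their 12 windows. The letters CAGATG, one form of CANNTG, were found in windows of 4 of the 9 genes and in 17.2% of all windows. The letters GGTGTGA, the core of the site that T-box factors bind, were in no window of the 9 genes and in 3.98% of all windows. A match is a description of the letters and says nothing of binding.

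Libraries G4 (500 mg/kg) and G9 (vehicle), both from females, stood apart from the rest. The G numbers otherwise run upward with the dose group, and that of G4 lies among those of the vehicle mice, while its tag number, 44, is shared with G79 of the 500 mg/kg group. The labels were kept as given, and whether G4 belongs to another group was not tested. Their median correlation with the other libraries was 0.943 and 0.942, against 0.959 to 0.975 for the remaining 16. G9 had the lowest level of all 18 libraries for 6 of the 9 genes and G4 for 2 of them, and each was among the lowest pair for 7 of the 9. *Tbr1* was at 1.93 CPM (15 reads) in G4 and at 0.887 CPM (8 reads) in G9, against 32.1 to 254 CPM in the other 16 libraries. *Fezf2* had 2 reads in G4 and 0 reads in G9, which allows up to 0.332 CPM (3 counts), while the other 16 libraries held 4.19 to 45.0 CPM. These limits cover counting error only.

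The other 7 genes were detected in both libraries. *Slc17a7* was at 173 CPM in G4 and 192 CPM in G9, which is 22.7% and 25.3% of the median of the 15 libraries other than G4, G9 and G45. *Neurod6* was at 22.5 CPM in G4 and 17.6 CPM in G9. *Cux2* (39.7 and 36.8 CPM) and *Wfs1* (64.4 and 43.4 CPM) were below all 15 of those libraries as well. *Neurod2* parted the pair: G4 had 29.04 CPM, the lowest of all libraries, and G9 had 117 CPM, within the range of the other vehicle mice. *Prox1*, at 42.5 CPM in G4 and 35.1 CPM in G9, was within the range of the 15 in both.

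Genes of other brain regions differed in the same libraries. The 16 hindbrain *Hox* genes, which pattern the brainstem and spinal cord, summed to 91.49 CPM in G4 and 305.8 CPM in G9 and to 0 to 65.53 CPM elsewhere. The cerebellar list summed to 348.5 CPM in G4, the lowest of all libraries, and to 4520 CPM in G9. It varied widely elsewhere too, from 571.6 CPM in G87 to 4861 CPM in G49. By its mean log2 level, G29 (2.73) was lower than G4 (3.64). *Neurod1*, a relative of *Neurod2* made by cerebellar and dentate granule cells and picked after its values were seen, was at 4.37 CPM in G4 and 201 CPM in G9. The 10 oligodendrocyte genes summed to 16610 CPM in G4, the highest of all libraries, and to 6795 CPM in G9. Which part of the half-brain each RNA sample held, and its part in the levels of the 9 genes, was not tested.

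Library G45 (125 mg/kg, male) also differed from the rest, in another way. *Prox1* (98.0 CPM) and *Rorb* (256 CPM) were higher in it than in every other library, at 268% and 200.1% of the median of the same 15 libraries. *Slc17a7* (353 CPM), *Tbr1* (32.1 CPM), *Neurod2* (45.8 CPM) and *Wfs1* (69.0 CPM) were below all 15. The 13 genes of the thalamic neuron list summed to 2613 CPM in G45, against 188.4 to 854.2 CPM in the other 17 libraries. *Hox* genes were near absent, with 10 of 16 at 0 reads and a sum of 1.187 CPM. This was not particular to G45, as they summed to 0 CPM in G29 and 0.921 CPM in G25.

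**Figure D1:**
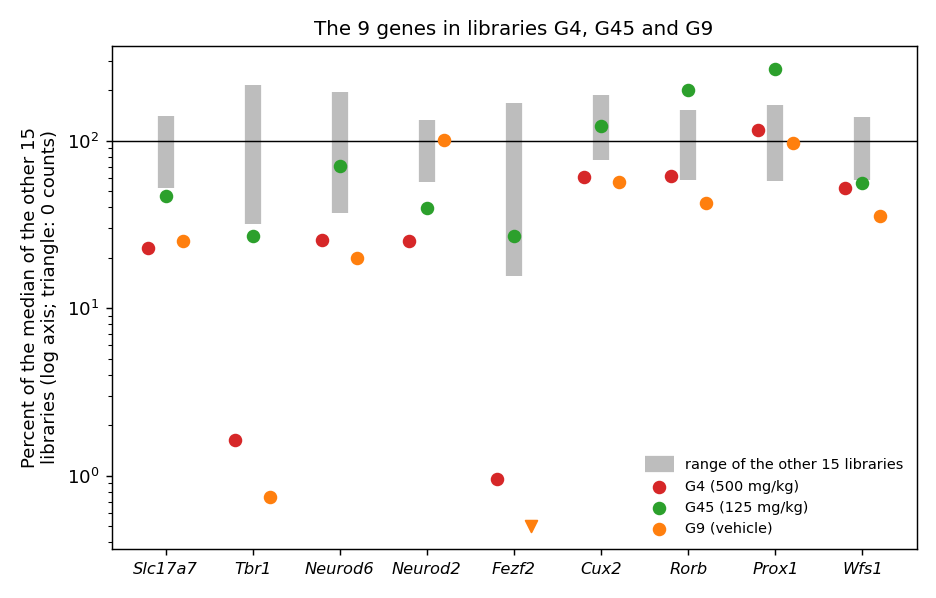
Level of each of the 9 genes in libraries G4 (red, 500 mg/kg), G45 (green, 125 mg/kg) and G9 (orange, vehicle) as a percent of the median of the other 15 libraries, on a log axis, with the range of those 15 as grey bars. *Tbr1* was at 1.63% in G4 and 0.7503% in G9, *Fezf2* at 0.954% in G4 and 0 in G9, *Neurod2* was low in G4 and at 101% in G9, and *Prox1* and *Rorb* were above the grey bars in G45.

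The first question was whether the 9 genes changed with dose. The dose regression, fitted over all tested genes with sex as a covariate, gives the log2 change per 500 mg/kg. It called 46 of 15863 genes (0.29%) at an adjusted p under 0.05 (edgeR quasi-likelihood test, Benjamini-Hochberg), and 0 of the 9. With DESeq2 and limma-voom the count was 0 of 9 too. Of the 9 slopes, 8 were negative, against 48.8% of all genes, with a median of -0.75 against 0.01 over all genes. Most of the 9 genes ran together over the same mice, and they were chosen with earlier results of these data known. The count of signs therefore does not measure an excess over chance. Negative slopes with an unadjusted p under 0.05 were found for 2 of the 9 and for 5.28% of all genes (13.2% in either direction). Leaving out 1 library moved the median to between -0.87 (without G90) and -0.44 (without G4).

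*Slc17a7* gave one of the 2 smallest p-values. It was at 870.1, 872, 192, 976 and 545 CPM in vehicle mice, at 801, 1059.98, 669, 1008 and 353 CPM at 125 mg/kg, at 465, 809, 759 and 406 CPM at 250 mg/kg and at 173, 414, 515 and 398 CPM at 500 mg/kg. The 4 mice at the highest dose were below every vehicle mouse except G9, which was set aside after its levels were seen. With G9 left out, 3.14% of all genes had this split. Its slope was -1.02 (SE 0.412), and the mean was 374.9 ± 144 CPM at 500 mg/kg against 691 ± 323 CPM in vehicle mice (SD, n = 4 and 5). The slope had an unadjusted p of 0.0225 and an adjusted p of 0.297 (edgeR).

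*Neurod2* gave the other. It was at 119, 128, 117, 150.5 and 90.5 CPM in vehicle mice, at 154, 119.7, 79.5, 118 and 45.8 CPM at 125 mg/kg, at 132, 90.8, 116 and 65.3 CPM at 250 mg/kg and at 29.04, 91.8, 69.6 and 85.0 CPM at 500 mg/kg. At 500 mg/kg, G79 lay just above the lowest vehicle mouse and the other mice lay below it. The share of all genes with such a split was not counted. Its slope was -0.75 (SE 0.309, adjusted p = 0.31, edgeR), and -0.44 without G4. Its mean was 68.9 ± 28.1 CPM at 500 mg/kg against 121 ± 21.6 CPM in vehicle mice (SD, n = 4 and 5).

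*Tbr1* had the steepest slope and the widest error. Its levels were 167, 128, 0.887, 126 and 104 CPM in vehicle mice, 123, 254, 98.2, 167 and 32.1 CPM at 125 mg/kg, 37.5, 118, 128 and 74.8 CPM at 250 mg/kg and 1.93, 37.9, 61.4 and 57.7 CPM at 500 mg/kg. All 4 mice at 500 mg/kg were below all vehicle mice other than G9, which was the lowest of the 18. This split without G9 was found for 3.14% of all genes. The slope of -1.74 (SE 0.909) had an adjusted p of 0.424 (edgeR), and leaving out single mice moved it from -1.98 (without G9) to -1.22 (without G4).

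*Neurod6* followed a different course over the doses. It was at 88.1, 54.8, 17.6, 125 and 55.2 CPM in vehicle mice, at 171, 150.0, 130.5, 126 and 62.4 CPM at 125 mg/kg, at 65.1, 111, 96.6 and 62.0 CPM at 250 mg/kg and at 22.5, 32.7, 60.2 and 79.5 CPM at 500 mg/kg. At 125 mg/kg, G25, G29 and G34 were above every vehicle mouse, and G40 (126 CPM) was level with G15 (125 CPM), the highest of them. G45 was within the vehicle range, and the mice at 500 mg/kg overlapped the vehicle group. The share of all genes with such a split was not counted. The change at 125 mg/kg against vehicle was 0.89 (SE 0.413, unadjusted p = 0.0445, adjusted p = 0.438, edgeR). The test for any difference among the 4 groups gave *Neurod6* an unadjusted p of 0.0293 and an adjusted p of 0.289.

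*Fezf2* was at 29.1, 20.5, 0, 37.3 and 18.5 CPM in vehicle mice, at 39.5, 45.0, 28.9, 30.1 and 7.23 CPM at 125 mg/kg, at 4.19, 34.4, 26.9 and 23.6 CPM at 250 mg/kg and at 0.257, 11.4, 21.4 and 18.7 CPM at 500 mg/kg. Each group held 1 library well below its others (G9, G45, G49 and G4), and all groups overlapped. Its slope of -1.05 had an SE of 0.888 (adjusted p = 0.649, edgeR). *Cux2*, the upper layer gene, was at 69.9, 90.3, 36.8, 73.1 and 65.2 CPM in vehicle mice, at 49.7 to 101 CPM at 125 mg/kg, at 50.6 to 122 CPM at 250 mg/kg and at 39.7, 61.8, 62.9 and 57.8 CPM at 500 mg/kg. As for *Tbr1*, and for 3.14% of all genes, the 4 mice at the highest dose were below all vehicle mice other than G9. The slope of *Cux2* was -0.33 (SE 0.241, adjusted p = 0.591, edgeR). *Rorb* ran from 54.2 to 175 CPM in vehicle mice, from 121 to 256 CPM at 125 mg/kg, from 75.0 to 149.6 CPM at 250 mg/kg and from 78.4 to 138 CPM at 500 mg/kg, with a slope of -0.32 (SE 0.263).

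Of the 9 genes, *Prox1* and *Wfs1* had the slopes nearest to 0. *Prox1* was at 29.6, 35.1, 35.1, 42.7 and 36.5 CPM in vehicle mice, at 59.9, 25.3, 40.7, 20.9 and 98.0 CPM at 125 mg/kg, at 39.0, 29.8, 33.9 and 33.8 CPM at 250 mg/kg and at 42.5, 39.7, 49.9 and 50.2 CPM at 500 mg/kg. The 125 mg/kg group held both the lowest and the highest mouse, and the 4 mice at 500 mg/kg were above the 4 at 250 mg/kg, as for 1.78% of all genes. *Prox1* was the one gene of the 9 with a positive slope, 0.17 (SE 0.318, adjusted p = 0.854, edgeR). *Wfs1* ran from 43.4 to 171 CPM in vehicle mice, from 69.0 to 168 CPM at 125 mg/kg, from 111 to 159 CPM at 250 mg/kg and from 64.4 to 138 CPM at 500 mg/kg, and its slope of -0.07 (SE 0.317) changed sign without G4, G5 or G90.

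**Figure D2:**
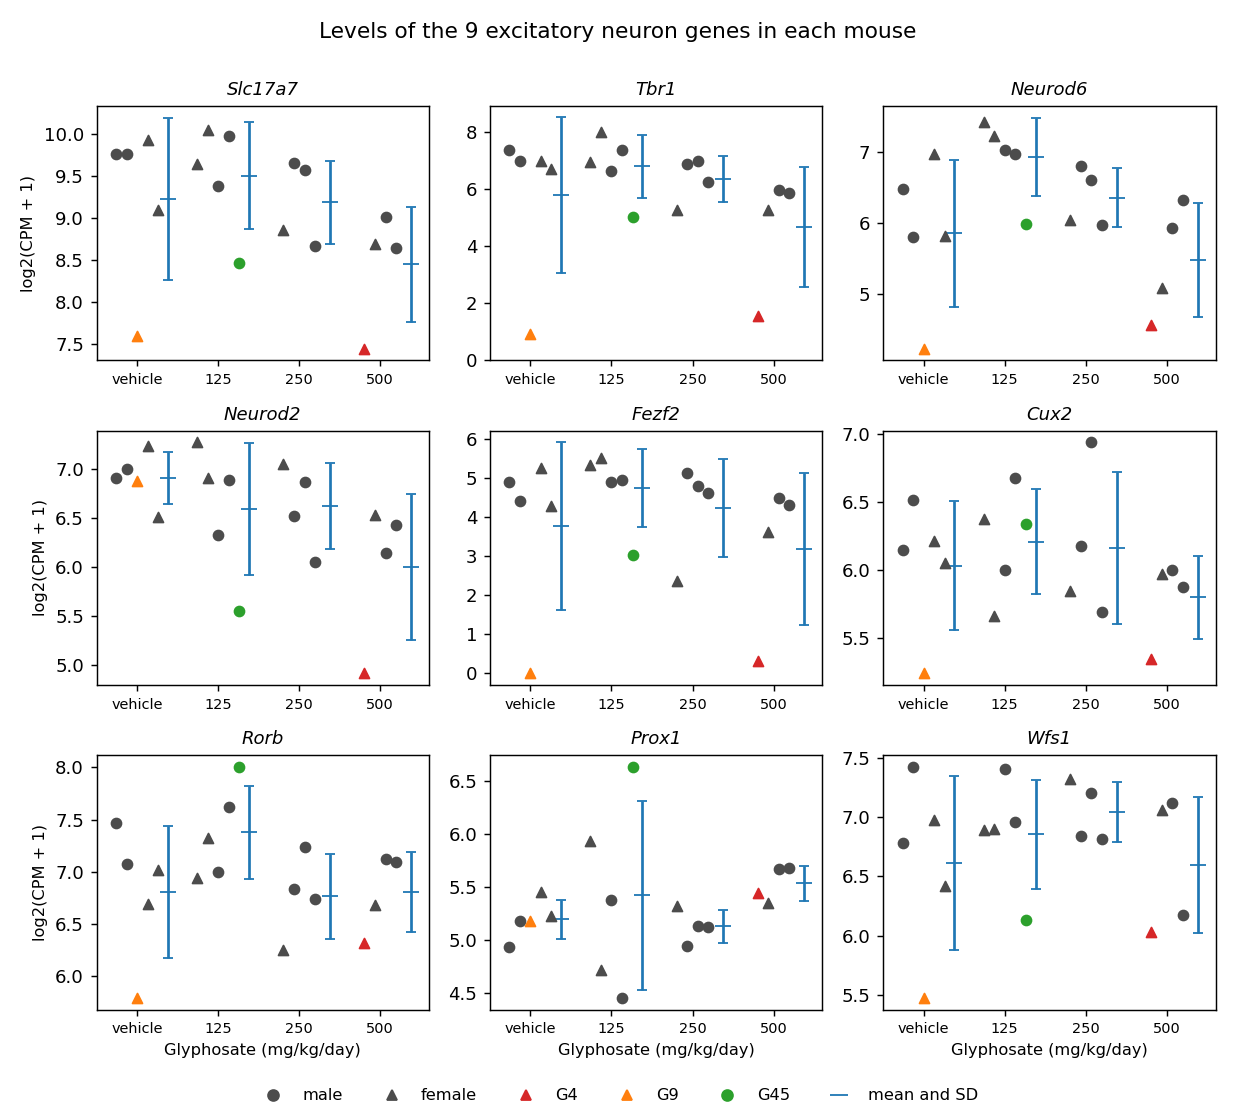
Level of each gene in each of the 18 mice as log2(CPM + 1) by dose (circles male, triangles female), and the group means with their SDs in blue. G9 lies far below the other vehicle mice for *Tbr1*, *Fezf2* and *Slc17a7*, G4 far below the other mice at 500 mg/kg, and *Prox1* spreads most at 125 mg/kg.

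Against vehicle alone, 500 mg/kg called 3 of all genes (0.0189%) and 0 of the 9 (edgeR). The estimates were below 0 for 8 of the 9, against 50.2% of all genes. *Slc17a7* (-0.91, SE 0.413, adjusted p = 0.409, edgeR) and *Neurod2* (-0.78, SE 0.327, adjusted p = 0.374, edgeR) had an unadjusted p under 0.05. Of all 15863 tested genes, 4.07% had both a negative estimate and an unadjusted p under 0.05. DESeq2 and limma-voom also called 0 of the 9. At 125 mg/kg, 8 of the 9 estimates were above 0, against 49.8% of all genes, and *Neurod6* was the one gene of the 9 at an unadjusted p under 0.05 (11.2% of all genes, 1773 in number). No gene of the table (0%) was called by edgeR at that dose. At 250 mg/kg, 6 of the 9 were below 0, against 50.1% of all genes, and 0 genes were called (0%) with 596 at an unadjusted p under 0.05 (3.76%), none of them among the 9. These 3 comparisons share the 5 vehicle mice, and most of the 9 genes ran together, so their counts of signs do not measure an excess over chance. Any difference among the 4 groups was called for 7 genes (0.0441%), none of the 9, and 2 of the 9, *Neurod6* and *Rorb* (unadjusted p = 0.0197, adjusted p = 0.259), had an unadjusted p under 0.05, as did 15% of all genes.

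Leaving out G4 raised the slopes of all 9 genes, and leaving out G9 lowered all 9. Without G9, the slopes were -1.21 (SE 0.332, adjusted p = 0.0782) for *Slc17a7* and -1.98 (SE 0.663, adjusted p = 0.126) for *Tbr1*. In that fit 24 falling genes were called (0.152%) and none of the 9. Without G4, no slope of the 9 had an adjusted p below 0.651. With both left out, *Slc17a7* had a slope of -0.95 (SE 0.314, unadjusted p = 0.00749, adjusted p = 0.28) and *Tbr1* of -1.47 (SE 0.505, unadjusted p = 0.00952, adjusted p = 0.295), and the median of the 9 was -0.47.

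With G9 left out, the 4 mice at 500 mg/kg were below the 4 remaining vehicle mice for 3 of the 9 genes, *Slc17a7*, *Tbr1* and *Cux2*, as they were for 3.14% of all genes. With G4 left out as well, the 3 genes were again these, and the share of all genes was 4.24%. With all 5 vehicle mice the count was 0 of 9, against 0.933% of all genes, and for 0 of the 9 were the mice at 500 mg/kg below all 5 at 125 mg/kg, against 3.06%. G9 was singled out after its low levels of these genes had been seen, and removing it raises their vehicle level by construction. Without both libraries, *Slc17a7* was at 442 ± 63.4 CPM at 500 mg/kg against 816 ± 187 CPM in vehicle mice (SD, n = 3 and 4), and *Tbr1* at 52.3 ± 12.6 CPM against 130.8 ± 26.2 CPM.

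The labels also carry 6 tag numbers of unstated meaning, of which 2 hold mice of 2 doses, and in both of these all vehicle mice are female and all dosed mice male. With the tag number added as a term beside sex, 10 residual degrees of freedom were left, and sex and dose were told apart over the 3 tag numbers that hold both sexes, 1 of which holds the mice at 250 mg/kg alone. In that fit, chosen after the data were seen, edgeR called 0 genes (0%) and 0 of the 9, with 369 genes (2.33%) and none of the 9 at an unadjusted p under 0.05. The median of the 9 slopes was -0.40, with 6 of 9 negative. *Slc17a7* had a slope of -0.86 (SE 0.884) and *Tbr1* of -1.08 (SE 1.87), with errors about as large as the slopes or larger, and *Rorb* (0.15, SE 0.468) and *Wfs1* (0.46, SE 0.712) turned positive.

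**Figure D3:**
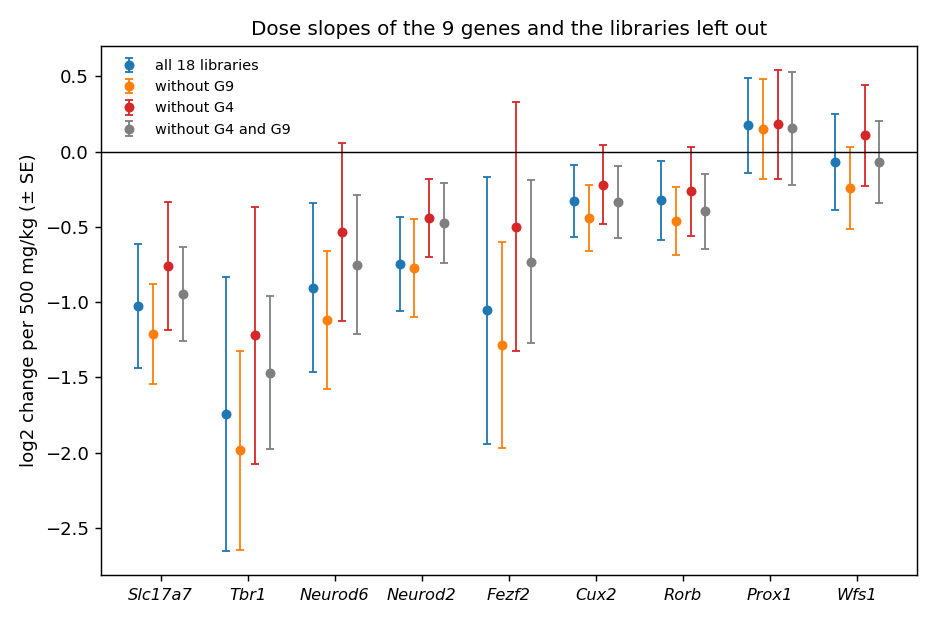
Dose slope of each gene as log2 change per 500 mg/kg with its standard error, from all 18 libraries and with G9, G4 or both left out. The slopes of *Slc17a7*, *Tbr1*, *Neurod6*, *Neurod2*, *Fezf2*, *Cux2* and *Rorb* are below 0 in all 4 fits, *Prox1* is above 0 in all 4, and *Wfs1* changes sign.

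Sex entered as a second comparison. Males were called different from females for 7 genes (0.0441%) and for none of the 9 (edgeR). *Rorb* was 0.59 higher in males on the log2 scale (SE 0.191, unadjusted p = 0.00581, adjusted p = 0.459) and *Cux2* 0.42 higher (SE 0.172, unadjusted p = 0.0246, adjusted p = 0.459), and 10.1% of all genes had an unadjusted p under 0.05. G4 and G9, which stood apart, were from females, and G45, which had the highest *Rorb* of all libraries (256 CPM), was from a male. The part of these libraries in the sex differences was not tested. The dose slope differed between males and females for 0 genes (0%), with 262 genes (1.65%) and none of the 9 at an unadjusted p under 0.05.

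Across libraries, the 9 genes varied more than most. The SD of log2 CPM was at percentile 99.91 of all tested genes for *Tbr1*, 99.78 for *Fezf2*, 97.6 for *Neurod6* and 96.09 for *Slc17a7*, and *Cux2* was the lowest at 75.92. *Tbr1* and *Fezf2* had a Pearson r of 0.97 over the 18 libraries and 0.86 over the 16 without G4 and G9. *Slc17a7* and *Tbr1* had an r of 0.93 and 0.91. The 2 related factors *Neurod6* and *Neurod2* had an r of 0.47 and 0.44. *Prox1* ran the other way, with an r of -0.39 to *Slc17a7* and -0.27 to *Tbr1*, and of -0.60 and -0.67 without both libraries. The libraries share doses and the normalization, so these values describe this set of mice.

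**Figure D4:**
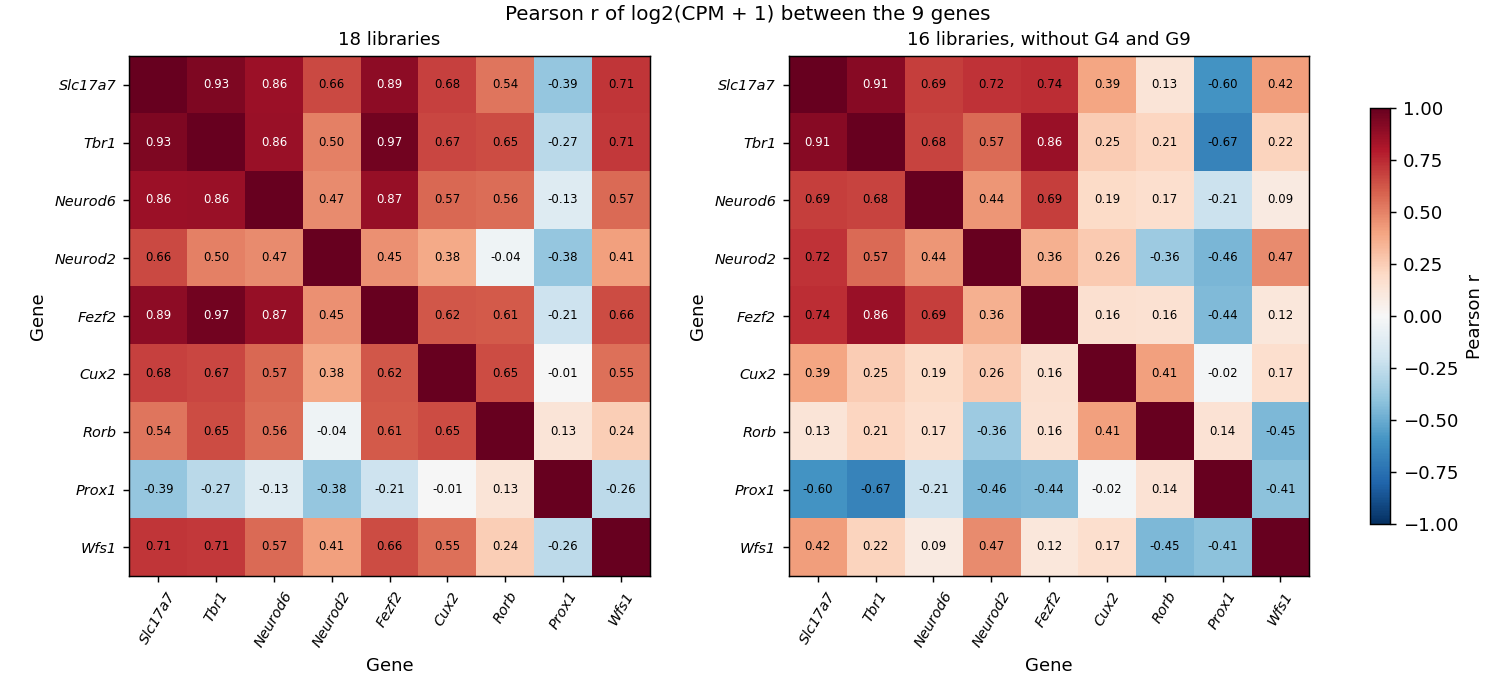
Pearson r of log2(CPM + 1) between each pair of the 9 genes, over 18 libraries (left) and over 16 without G4 and G9 (right). The block of *Slc17a7*, *Tbr1*, *Neurod6* and *Fezf2* has r of 0.86 to 0.97 on the left and 0.68 to 0.91 on the right, while *Prox1* is negative to *Slc17a7* and *Tbr1* in both panels.

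Among the genes of the other lists, each of the 9 had a nearest one by Pearson r over 18 libraries. For *Slc17a7* it was *Emx1* (0.97), a homeobox gene of the dorsal forebrain, and for *Tbr1* and *Fezf2* it was *Nrgn* (0.99 and 0.97), which encodes the calmodulin-binding protein neurogranin. For *Neurod6* it was *Bcl11a* (0.90) and for *Cux2* and *Rorb* it was *Nr2f1* (0.84 and 0.79), both transcription factor genes of cortical neurons. For *Neurod2* it was *Zbtb18* (0.95), which was at 193 CPM in G4 and 587 CPM in G9, the same parting as *Neurod2* showed. For *Prox1* it was *Tcf7l2* (0.84), a transcription factor gene of thalamic neurons, and for *Wfs1* it was *Mpped1* (0.80).

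*Prox1* had an r of 0.81 with the mean level of the thalamic list, 0.60 without G45 and 0.57 without G45 and G1, the 2 libraries farthest from the median of that list. With the mean level of the hippocampal field list its r was 0.39. *Tbr1* had an r of -0.80 with the *Hox* list, and of -0.40 without G9 and G4. With the mean log2 level of the GABAergic interneuron list, *Tbr1* had an r of 0.91, and 0.79 without G4 and G9. The summed level of that list was 1081 CPM in G4 and 881.6 CPM in G9, within the 767.6 to 1269 CPM of the other libraries. Its genes differed from each other in G4. *Cck* (2.06 CPM) and *Npy* (0.514 CPM) were below all libraries other than G4 and G9, *Slc32a1* (392 CPM) was above them, and *Gad2* (397 CPM) was within their range. *Neurod2* had an r of -0.78 with the oligodendrocyte list, and of -0.62 without G4 and G5.

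**Figure D5:**
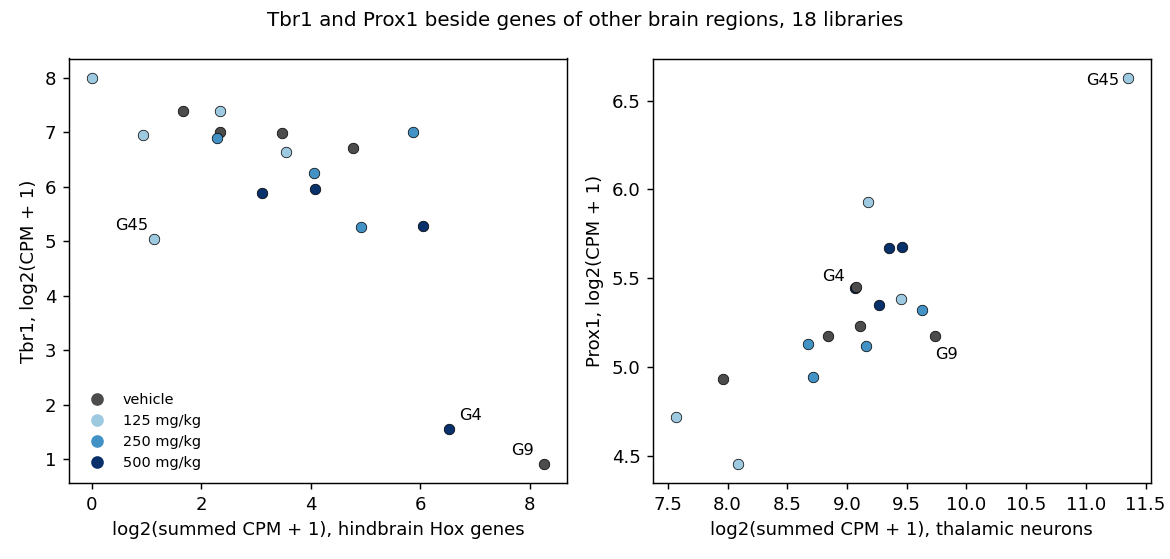
Left, *Tbr1* against the summed level of 16 hindbrain *Hox* genes, and right, *Prox1* against the summed level of 13 thalamic neuron genes, both as log2(CPM + 1) with 1 point per library coloured by dose. G4 and G9 sit at the low end for *Tbr1* and the high end for *Hox*, and G45 is the highest for *Prox1* and for the thalamic genes.

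Over all genes with a mean of at least 5 CPM, those whose level ran closest to the mean of the 9 were *Camk2a*, *Lhx2*, *Kifc2*, *Mef2c*, *Emx1*, *Nrgn*, *Npy1r*, *Lingo1*, *Nell2* and *Emx2*, with r from 0.97 to 0.95 over the 18 libraries. *Camk2a* encodes a synaptic kinase of forebrain excitatory neurons, and it was at 131 CPM in G4 and 115 CPM in G9, against 797 to 3307 CPM in the other 16 libraries. The most opposite were *Plin3*, *Gng11*, *Mettl26*, *Tppp3* and *Elmod2*, with r from -0.86 to -0.84. Without G4 and G9, 1 of the 10 most alike was again among the 10, and with Spearman's correlation 2 were.

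Other genes of the same neurons were counted in lists. For these and the lists below, 48.8% of all genes had a negative slope. An unadjusted p under 0.05 was found for 13.2% of all genes, and for 5.28% with a negative slope (edgeR). Of 16 genes of the dorsal forebrain and of excitatory identity, 0 were called by edgeR in the dose regression, 15 slopes were negative, and the median was -0.92. Negative slopes with an unadjusted p under 0.05 were found for 5 of the 16, among them *Mef2c* (-1.58, SE 0.636, adjusted p = 0.296), *Id2* (-0.50, SE 0.189, adjusted p = 0.268), *Nr2f1* (-0.46, SE 0.204, adjusted p = 0.347) and *Emx1* (-1.59, SE 0.746, adjusted p = 0.374). *Emx1* was at 0.129 CPM in G4 and 0.111 CPM in G9, against 2.81 to 14.5 CPM elsewhere, so it was near absent where *Tbr1* and *Fezf2* were. None of the 13 upper layer genes was called (median slope -0.14, 7 negative, 1 at an unadjusted p under 0.05), and none of the 17 deep layer genes (median -0.40, 13 negative, 2 at an unadjusted p under 0.05). *Pcp4*, a calmodulin-binding protein gene of deep layer neurons, had a slope of -0.94 (SE 0.342, adjusted p = 0.246, edgeR).

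Of 14 tested genes of hippocampal fields, 0 were called, 7 slopes were negative, and the median was -0.02. *Nectin3*, a cell adhesion gene, was the one of them at an unadjusted p under 0.05, with a slope of -0.53 (SE 0.255, adjusted p = 0.378, edgeR). None of the 21 glutamate receptor genes was called (median -0.26, 15 negative, 2 at an unadjusted p under 0.05), and none of the 12 genes of glutamate transport and supply (median 0.17, 2 negative, 3 at an unadjusted p under 0.05). Of 18 tested genes listed as relatives, partners or targets of the *Neurod*, *Tbr1* and *Fezf2* factors, 0 were called (median -0.41, 14 negative, 3 at an unadjusted p under 0.05). DESeq2 did not call *Emx1*, *Nr2f1*, *Mef2c*, *Id2*, *Pcp4* or *Nectin3* either.

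Lists for other regions and cells were counted in the same regression. Of all 15863 genes, 39 were called as rising and 7 as falling, and 1254 had a positive slope with an unadjusted p under 0.05 (edgeR). Of 9 tested midbrain dopamine neuron genes, 3 rose (edgeR), and 1 was called without G4 and G9. The 12 listed summed to 167.8 to 518.8 CPM at 500 mg/kg, against 41.75 to 192.3 CPM in vehicle mice. *Foxa2*, a factor gene of this list, had 0 reads in vehicle mice. Its level was only 0 to 2.89 CPM over the 16 libraries other than G4 and G9, and it failed the filter on low counts. All other genes of the list were detected in vehicle mice. Of 12 tested hypothalamic genes, 1 rose, and the 15 listed summed to 18.6 to 155.9 CPM at 500 mg/kg against 6.215 to 15.27 CPM in vehicle mice. None of the 10 oligodendrocyte genes was called by edgeR, with 9 at an unadjusted p under 0.05, and they summed to 5955 to 16610 CPM at 500 mg/kg against 4096 to 7316 CPM in vehicle mice, with a median slope of 0.70, or 0.33 without G4. Most slopes of 3 other lists were negative, and edgeR called none of their genes. Of 14 striatal projection neuron genes, 13 slopes were negative (median -1.17, 1 at an unadjusted p under 0.05), and the list summed to 517.9 to 1336 CPM at 500 mg/kg against 474.4 to 4925 CPM in vehicle mice. Of 15 cerebellar genes, 14 were negative (median -0.67, or -0.38 without G4, 1 at an unadjusted p under 0.05), and the list summed to 348.5 to 3212 CPM at 500 mg/kg against 1796 to 4520 CPM in vehicle mice. Of 8 choroid plexus genes, 8 were negative (median -0.87, or -0.34 without G4, 0 at an unadjusted p under 0.05), and they summed to 34.18 to 312.4 CPM at 500 mg/kg against 18.95 to 1300 CPM in vehicle mice. *Slc17a7* had an r of -0.74 with the mean level of the dopamine list over the 18 libraries and of -0.77 without G4 and G9. The part of these regions in the slopes of the 9 genes was not tested.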

How the data were processed

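RNA was extracted from half-brains of 18 mice, 1 library each. Per the labels and the study's methods, stranded, rRNA-depleted total RNA libraries were sequenced as 100 bp paired-end reads, aligned with STAR 2.7.5b to GRCm38 and counted per gene with featureCounts. The authors deposited raw, whole-number counts per Entrez gene, and these counts were used unchanged. The counting annotation and strand setting are not given in the sources used here, so reads of overlapping antisense genes may be included. Symbols were found for 25275 of 27179 rows.

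Genes were kept by filterByExpr on dose group with a minimum count of 10. Counts were scaled by TMM, and edgeR 4.0.16 quasi-likelihood tests (R 4.3.3) were fitted over all 18 libraries to dose as a number and to dose as groups, with sex as a covariate. The biological coefficient of variation was 25.8%. Adjusted p-values are Benjamini-Hochberg over 15863 genes, with 0.05 as threshold. DESeq2 1.42.0 and limma-voom 3.58.1, other filters, covariates and subsets of libraries, and leaving out each mouse were the alternatives, and the scripts were tested on simulated data. Counts of groups that do not overlap with G9, or G9 and G4, left out, and the fits with the tag number of the labels as a term, were added after the data were seen. Levels are CPM, and log2 levels have a pseudocount of 1. Each library is a separate mouse.

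Genes named besides the 9 are up to 4 of each list with the smallest p in the dose regression, the 10 most and the 10 least alike the 9 in level, and the nearest list gene to each of the 9, except where stated. The 9 genes and the lists were chosen with earlier results of these data known. Promoter windows are from RefSeq on GRCm38.p6, and exon lengths are from an annotation of GRCm38.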

Additional observations from a re-analysis of the deposited data

Results flagged for a closer look

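The lowest mouse of a dose group stood far from the rest of its group in 4 of the 36 combinations of gene and group checked with Dixon's test, and chance flags about 1 in 20. All 4 were on the log2 scale and were of *Tbr1* or *Fezf2*, which ran together (r of 0.97 over 18 libraries). The combinations are not independent, so 4 of 36 does not measure an excess over chance. *Tbr1* was at 0.887 CPM in G9, where the nearest vehicle mouse had 104 CPM, and at 1.93 CPM in G4, where the nearest mouse at 500 mg/kg had 37.9 CPM. *Fezf2* was at 0 CPM in G9, where the nearest vehicle mouse had 18.5 CPM. *Fezf2* was at 7.23 CPM in G45, where the nearest mouse at 125 mg/kg had 28.9 CPM.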

How the results depend on the processing

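None of the 9 genes was called in the dose regression or at 500 mg/kg against vehicle under any alternative that was run, and the lowest adjusted p was 0.0782 (edgeR, *Slc17a7* in the dose regression without G9). The number of genes called in the dose regression was 46, and it was 29 with no filter on low counts, 226 with DESeq2, 2 without G4 and G9, 7 with the *Slc17a7* level as covariate, 27 with dose as rank, 0 without the 500 mg/kg group, 7 without the vehicle group, 0 with the tag number as a term and 0 in males only and in females only. Leaving out 1 mouse gave 2 (without G4) to 127 (without G79). At 500 mg/kg against vehicle 3 were called, and it was 9 with no filter, 8 with 10 counts or more required of all libraries, 171 with DESeq2, 7 with no sex covariate, 1 without G4 and G9, 1 with only both groups compared, 0 with the tag number as a term, and 0 (without G4) to 19 (without G45) with 1 mouse left out.

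The median slope of the 9 was -0.75, and it was -0.33 over the 7 genes that had 10 counts or more in all libraries (without *Tbr1* and *Fezf2*), -0.31 with limma-voom, 0.13 with the *Slc17a7* covariate, -0.054 without the 500 mg/kg group, -0.41 in males only, -0.40 with the tag number as a term, and -0.87 to -0.44 with 1 mouse left out. At 500 mg/kg the median was 0.21 with the *Slc17a7* covariate and -0.83 (without G90) to -0.21 (without G15) with 1 mouse left out. Both medians with the *Slc17a7* covariate are over the other 8 genes. *Slc17a7* is itself one of the 9 and ran with most of them, so this covariate takes up a shared change by construction.

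Signs turned as follows, and those with the *Slc17a7* covariate were partly fixed in advance for genes that ran with *Slc17a7*. With the *Slc17a7* covariate the slopes were 0.35 for *Tbr1*, 0.26 for *Neurod6*, 0.89 for *Fezf2*, 0.0029 for *Cux2*, -0.084 for *Prox1*, 0.50 for *Wfs1* and 0.20 for *Emx1*, and the changes at 500 mg/kg were 0.33 for *Tbr1*, 0.39 for *Neurod6*, 0.90 for *Fezf2*, 0.061 for *Rorb* and 0.45 for *Wfs1*. Without the 500 mg/kg group the slopes were 0.92 for *Neurod6*, 0.33 for *Fezf2*, 0.073 for *Cux2*, -0.054 for *Prox1* and 0.57 for *Wfs1*. Without the vehicle group *Prox1* was at -0.048. With the tag number as a term the slopes were 0.15 for *Rorb* and 0.46 for *Wfs1*, and the changes at 500 mg/kg 0.098 for *Rorb* and 0.68 for *Wfs1*. *Wfs1* was at 0.000506 with dose as rank and 0.21 in females only. With 1 mouse left out, *Wfs1* ran from -0.24 to 0.13 in the dose regression and from -0.29 to 0.16 at 500 mg/kg, and *Rorb* from -0.27 to 0.0048 at 500 mg/kg. The causes were not tested. Levels of *Tbr1* in G4 and G9 and of *Fezf2* in G4, G9 and G49 rest on 0 to 17 reads and are imprecise. No paired analysis was possible because each G number belongs to 1 mouse. The tag numbers, which several mice share, were fitted as a term instead.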
